A study of Mus musculus with 4 samples.

Results

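The genes described here encode the machinery that cells assemble to divide. They comprise 37 genes of mitosis and the spindle, chosen by name, and all probe sets that the array's platform table gave to any of these symbols were taken. This found 82 of the 45101 probe sets on the array, which stood for 36 of the 37 genes and for 36 of the 18193 genes with a symbol. Cyclin B1 (Ccnb1) had no probe set under its symbol in the table used. It has no expression values here and enters only the promoter counts. Of the 82 probe sets, 71 were bright enough to be tested, and each of the 36 genes had at least 1 of them.

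When a cell enters mitosis, the kinase Cdk1 is switched on by its cyclin partners, chromosomes condense, and microtubules build a spindle that grips each chromosome at its kinetochore. A checkpoint holds the cell back until every kinetochore is attached, after which the anaphase-promoting complex (APC/C) has cyclins destroyed and the cell is cut apart at cytokinesis. Most of the transcripts involved are made in the late part of the cell cycle and are scarce in cells that have stopped dividing, so that their level in a tissue is widely read as a sign of proliferation. In the fetal kidney the collecting duct and the young nephron both grow by division.

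RNA came from structures cut by laser from frozen sections of wild-type fetal mouse kidneys of the outbred CD-1 stock at stage E15.5 (E for embryonic day, Theiler stage 23), sex unknown. Of these, 1 array (replicate 3) held cortical collecting duct, the peripheral part of the urine-draining tree that sprouts from the ureteric bud. The other 3 arrays (replicates 1, 2 and 3) held the anlage of the loop of Henle, a segment of the young nephron. About 50 sections from 5 kidneys were pooled for an array, and their RNA was amplified over 2 rounds. How structures were recognised, and whether pools had kidneys in common, is not in the labels, so the p-values cover only how far these samples scatter, and that scatter may be technical. In pooled tissue fewer dividing cells and less of a transcript per cell cannot be told apart.

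All levels below are log2(signal + 109.6) after quantile normalization, and all differences are the collecting duct array minus the mean of the 3 anlage arrays on that log2 scale. The offset of 109.6 makes differences of dim probe sets smaller than they are. In the collecting duct array 13 of 13 collecting duct markers were higher than the anlage mean, and 13 of 13 loop markers were lower. All loop markers lay below every anlage array, and 12 collecting duct markers lay above every one. Both lists were drawn up with earlier results of these data known, so these counts are no independent check of the labels. Among the anlage arrays, array 2 was highest for 11 collecting duct markers and lowest for 10 loop markers. Of all genes, 45.7% were highest and 26.3% lowest there. The summed signal of loop markers was 171489, 52257 and 123253 in anlage arrays 1, 2 and 3. The Gapdh ratio, signal at the 3' end over that at the 5' end, rises in degraded RNA. It was 12.0 for the collecting duct and 10.3, 54.1 and 26.0 for anlage arrays 1, 2 and 3. Averaged over the members, the level was 12.20 in the collecting duct. In the anlage it was 12.48 (array 1), 12.95 (array 2) and 12.68 (array 3), the same order as for the Gapdh ratio. The mean level of all tested genes had this order too, at 10.82, 11.09 and 11.05. The Gapdh ratio's part in the results was not tested. The collecting duct array had the lowest mean level of the members. Its mean level of all tested genes, 10.91, lay between those of anlage arrays 1 and 3.

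Many of these genes hold, in their promoters, letters known from late cell cycle genes. Late cell cycle promoters are known for CCAAT boxes, bound by NF-Y, together with a CHR element near the start of the gene, through which the DREAM and MuvB complexes act. RefSeq promoter windows (build GRCm38.p6, 250 bases before to 50 after the start) were at hand for 32 of the 37 genes. Ccnb1, which has no expression values here, is among these 32 and is counted as a member in the promoter results. The letters CCAAT and TTTGAA, the common form of the CHR, were searched on either strand. These motifs can overlap by a single base. The windows below hold both and belong to the first 4 such genes in alphabetical order, plus Cdc20, added after its values were seen because it had the smallest p of the members. They are written 5' to 3' along the gene, with CCAAT and TTTGAA (or their reverse complements ATTGG and TTCAAA) in capitals.
Aurka: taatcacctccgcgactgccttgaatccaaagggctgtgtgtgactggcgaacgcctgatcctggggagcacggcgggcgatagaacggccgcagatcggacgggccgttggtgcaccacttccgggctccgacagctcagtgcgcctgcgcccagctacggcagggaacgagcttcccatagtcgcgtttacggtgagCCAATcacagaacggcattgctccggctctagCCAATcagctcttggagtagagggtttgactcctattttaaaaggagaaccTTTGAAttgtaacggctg
Bub1b: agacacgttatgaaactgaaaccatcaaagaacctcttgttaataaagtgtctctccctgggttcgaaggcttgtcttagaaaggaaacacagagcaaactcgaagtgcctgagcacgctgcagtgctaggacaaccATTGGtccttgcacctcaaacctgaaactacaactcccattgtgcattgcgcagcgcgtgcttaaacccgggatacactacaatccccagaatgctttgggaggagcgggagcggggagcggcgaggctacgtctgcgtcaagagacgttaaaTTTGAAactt
Bub3: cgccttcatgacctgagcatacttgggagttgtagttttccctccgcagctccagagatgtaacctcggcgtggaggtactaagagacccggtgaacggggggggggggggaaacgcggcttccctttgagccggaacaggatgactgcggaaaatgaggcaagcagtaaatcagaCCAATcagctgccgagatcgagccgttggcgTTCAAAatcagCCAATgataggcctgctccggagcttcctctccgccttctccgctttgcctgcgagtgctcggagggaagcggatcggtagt
Ccnb2: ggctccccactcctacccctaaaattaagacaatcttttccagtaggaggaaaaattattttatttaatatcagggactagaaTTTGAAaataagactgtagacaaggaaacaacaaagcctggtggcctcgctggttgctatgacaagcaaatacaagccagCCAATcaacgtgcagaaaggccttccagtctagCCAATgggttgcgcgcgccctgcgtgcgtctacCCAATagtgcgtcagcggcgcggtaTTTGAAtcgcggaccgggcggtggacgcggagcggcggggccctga
Cdc20: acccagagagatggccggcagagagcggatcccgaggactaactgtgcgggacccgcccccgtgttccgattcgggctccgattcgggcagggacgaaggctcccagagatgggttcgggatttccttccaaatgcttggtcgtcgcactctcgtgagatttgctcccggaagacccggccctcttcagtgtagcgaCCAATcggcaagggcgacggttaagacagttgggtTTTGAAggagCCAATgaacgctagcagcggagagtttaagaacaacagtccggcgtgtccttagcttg

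The Aurka window is chr2:172370521-172370820 (minus strand), that of Bub1b chr2:118597961-118598260 (plus), that of Bub3 chr7:131560120-131560419 (plus), that of Ccnb2 chr9:70421505-70421804 (minus) and that of Cdc20 chr4:118437294-118437593 (minus). Counted from the RefSeq start, whose first base is +1, the CCAAT boxes of Ccnb2 began at -87, -54 and -21 and a TTTGAA at +5, with another at -167. In Cdc20 the CCAAT boxes began at -53 and -8, on either side of a TTTGAA at -18. Over 1 window per gene, the 31 matches to TTTGAA had a median position of +3, and 24 of them began at -50 or later. The 60 matches to CCAAT had a median position of -69.5, and 40 of them began upstream of -50.

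TTTGAA stood in the windows of 25 of 32 members, which is 78.1%, while 14.4% of the 10200 tested genes with a window and 20.2% of all 27025 genes with a window held it. CCAAT was also in 25 of 32, against 42.7% of tested genes, and 18 of 32 (56.2%) had at least 2 CCAAT boxes, against 16.3%. Both motifs stood together in 22 of 32 members (68.8%) and in 5.66% of tested genes. The alternative CHR letters TTTAAA were in 9 of 32 members, against 11.1%, and GGCGG, common in GC-rich promoters, was in 29 of 32, near its share of 83.7% among tested genes. Birc5, Mad2l1, Nuf2 and Nusap1 held neither CCAAT nor TTTGAA in this window. Of 50 other mitosis genes with a window, 27 held TTTGAA (54.0%), 33 held CCAAT (66.0%) and 19 held both (38%). Of 30 DNA replication genes with a window, 5 held TTTGAA (16.7%) and 18 held CCAAT (60%). A match is a run of letters and was not tested as a binding site.

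Most mitosis and spindle genes stood lower in the cortical collecting duct than in the anlage, by modest amounts, and none passed the test. Of the 36 members, each taken by its brightest probe set, 33 had a lower value, where 54.9% of all 12642 tested genes did. For 19 of the 36 the collecting duct array lay below all 3 anlage arrays, against 24.3% of all genes, and for 0 members it lay above all 3, against 17.3%. The median difference over the members was -0.52, beside -0.06 over all genes. Differences ran from -1.11 to 0.07, and only Anln and Mad2l1 differed by more than 1 on the log2 scale.

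Limma called 0 members at a Benjamini-Hochberg adjusted p of 0.05 over all genes, and 0% of all 12642 genes in either direction. The smallest adjusted p of a member was 1.00, and 1 member, Cdc20, had an unadjusted limma p under 0.05, in the lower direction (2.23% of all genes), and 0 in the higher direction (1.18%). With standard errors of 0.30 to 0.78, and a collecting duct group of 1 array whose own spread is unknown, differences of this size could not be told from the spread between arrays. Without anlage array 2, limma called 14 of all genes and 0 members, and without anlage array 1, 6 members had an unadjusted p under 0.05, all lower, as did 7.85% of all genes in that direction. The difference was smaller than the SD of the anlage arrays for 16 of 36 members.

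**Figure D1:**
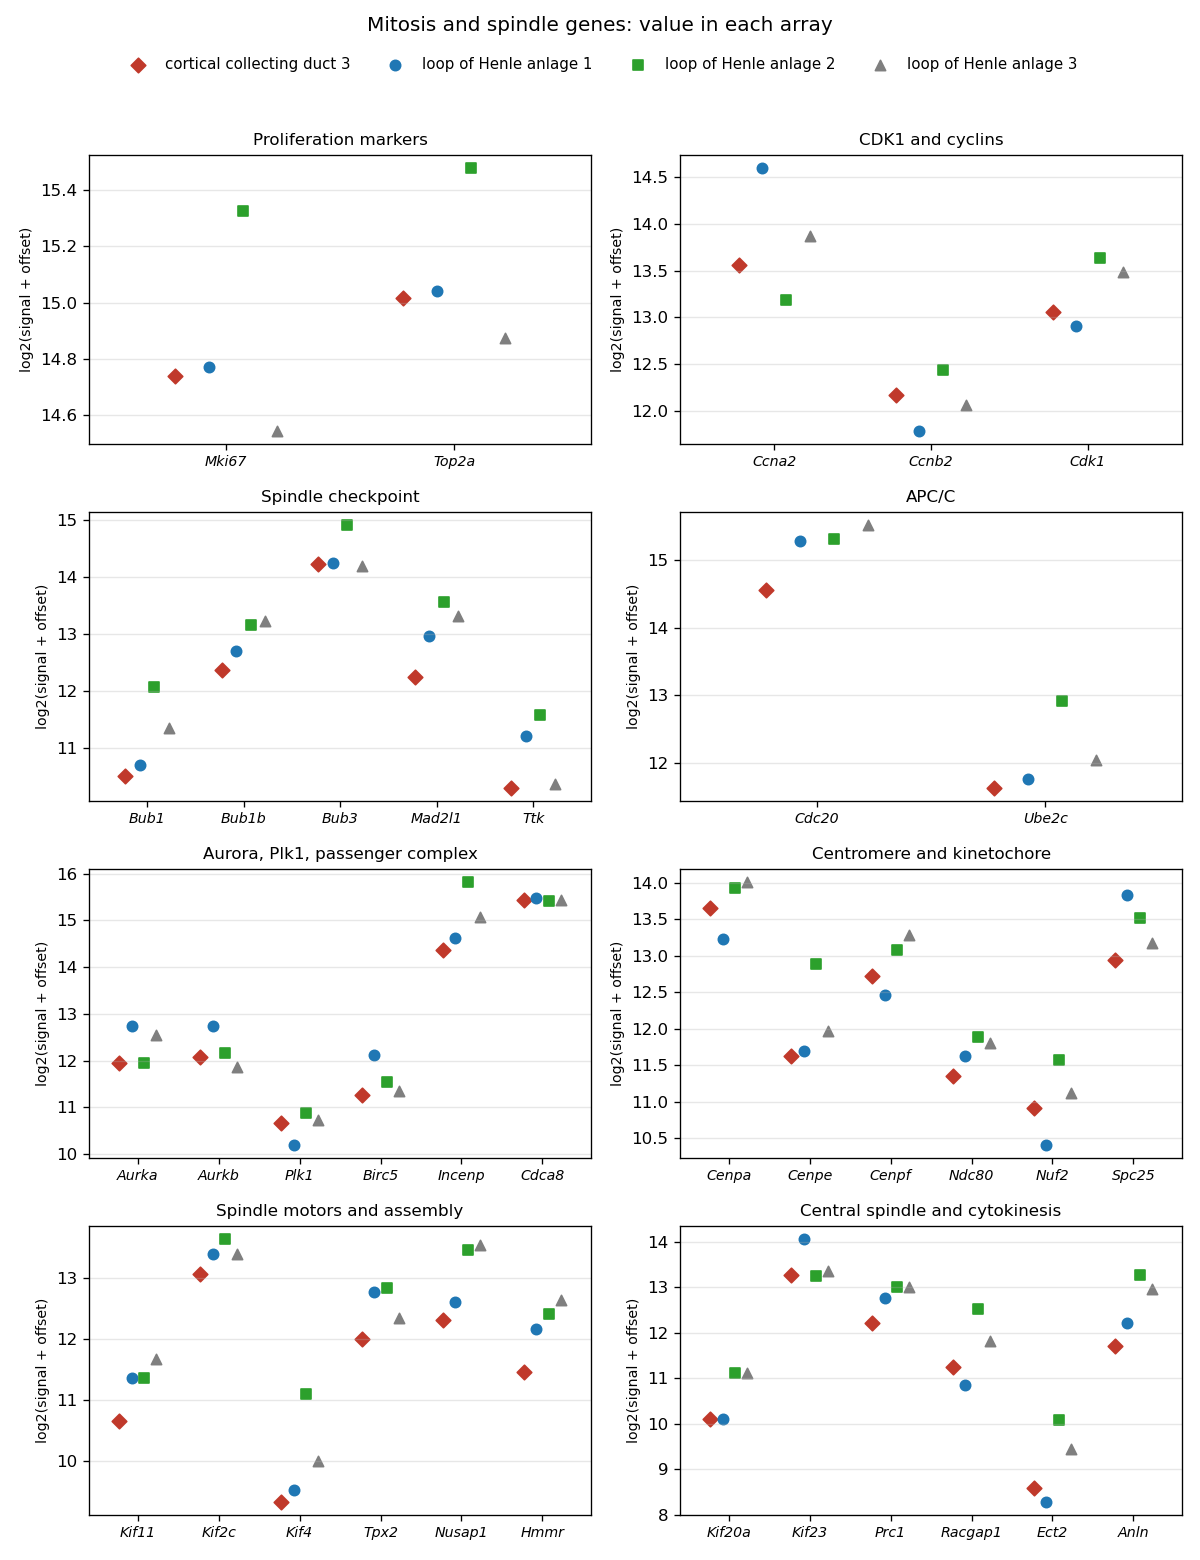
Level of each of the 36 tested members, as log2(signal + 109.6), in the cortical collecting duct array (diamond) and in loop of Henle anlage arrays 1 (circle), 2 (square) and 3 (triangle), by role. Each point is 1 array, and vertical scales differ between panels. In 19 members the diamond lies below the 3 other points, and in 0 members above them.

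The general markers of dividing cells differed little. Mki67, whose protein coats mitotic chromosomes and marks cycling cells, stood at 14.74 in the collecting duct array and at 14.77, 15.33 and 14.54 in anlage arrays 1, 2 and 3. The collecting duct value lay inside the anlage range, and the difference was -0.14 ± 0.43 (SE). Top2a, the topoisomerase that untangles sister chromosomes, stood at 15.01 against 15.04, 15.48 and 14.87, again inside the range, with a difference of -0.12 ± 0.38. Both differences turned positive without anlage array 2, at 0.08 for Mki67 and 0.06 for Top2a.

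Cdk1 and its cyclins were likewise within the spread. Ccna2, the cyclin of S phase and mitotic entry, stood at 13.56 in the collecting duct array and at 14.60, 13.19 and 13.88 in the anlage arrays, a difference of -0.33 ± 0.61 (SE). Anlage array 2 was the lowest of all 4 arrays here, and without anlage array 1 the difference was 0.03. Ccnb2, a B-type partner of Cdk1, stood at 12.17 against 11.79, 12.43 and 12.07. Its difference of 0.07 ± 0.53 was the most positive of all members, and it was -0.21 with every array brought to 1 shared median. Cdk1 itself, the kinase that starts mitosis, differed by -0.28 ± 0.50 and lay inside the anlage range.

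The spindle checkpoint genes, taken by their brightest probe sets, all had lower values (54.9% of all genes did). Of these, 4 of 5 lay below every anlage array (24.3% of all genes). Mad2l1, which blocks the APC/C while kinetochores are unattached, stood at 12.25 in the collecting duct array and at 12.97, 13.56 and 13.32 in the anlage arrays. The groups did not overlap, and the difference of -1.03 ± 0.48 (SE), a 2.04-fold lower level, ranged from -1.32 to -0.86 across settings. Bub1, a kinase at unattached kinetochores, differed by -0.87 ± 0.68, Ttk, the kinase that sets the checkpoint going, by -0.75 ± 0.65, and Bub1b, part of the inhibitor of the APC/C, by -0.66 ± 0.49. Without anlage array 2 the difference of Bub1 was -0.48. Bub3, the partner of Bub1 and Bub1b, stood at 14.23 against 14.25, 14.91 and 14.21, with the collecting duct array between anlage arrays 3 and 1, and differed by -0.23 ± 0.45, or -0.01 without anlage array 2.

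The target of that checkpoint was lower by a similar amount against each anlage array. Cdc20, the activator through which the APC/C starts anaphase, stood at 14.57 in the collecting duct array and at 15.29, 15.32 and 15.52 in the anlage arrays. The anlage arrays lay within an SD of 0.13, and the collecting duct array lay below all of them by a difference of -0.81 ± 0.32 (SE), with an unadjusted limma p of 0.0470 and an adjusted p of 1.00. Its unadjusted p was under 0.05 in 4 of 11 alternative settings and not in the other 7, where it reached 0.329. The other probe sets of Cdc20 differed by -0.91 and -0.81, though the collecting duct array lay inside the anlage range in the last of them. Ube2c, the enzyme that hands ubiquitin to the APC/C, stood at 11.63 against 11.76, 12.91 and 12.05, below all 3, and differed by -0.61 ± 0.62, or -0.26 without anlage array 2.

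Genes of the Aurora kinases, Plk1 and the chromosomal passenger complex were mixed. Of 6 members, 4 had a lower value and 2 lay below all anlage arrays, where 54.9% and 24.3% of all genes did. Incenp, the scaffold of the passenger complex, stood at 14.36 in the collecting duct array and at 14.62, 15.81 and 15.08 in the anlage arrays. Its difference of -0.81 ± 0.52 (SE) shrank to -0.14 over the mean of its probe sets. The other tested probe sets of Incenp were far dimmer and differed by -0.53, 0.09 and 0.79, the last above every anlage array. Cdca8, which encodes borealin of the same complex, stood at 15.44 against 15.47, 15.41 and 15.43, the closest agreement of the 4 arrays among the members, with a difference of 0.00 ± 0.30. Other probe sets of Cdca8 differed by -0.52 and -0.28. Birc5 (survivin) differed by -0.41 ± 0.56, Aurka, the kinase of spindle poles, by -0.46 ± 0.55, Aurkb, the kinase of the passenger complex, by -0.17 ± 0.56 and Plk1, a kinase needed at many steps of mitosis, by 0.06 ± 0.56. In anlage array 1 Aurka, Aurkb, Birc5 and Cdca8 had their highest anlage values, and without that array the difference of Aurkb was 0.08 and that of Birc5 -0.19.

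Taken by their brightest probe sets, all 6 centromere and kinetochore genes had lower values (54.9% of all genes did). Of these, 3 lay below every anlage array (24.3% of all genes). Spc25, a subunit of the NDC80 complex that binds microtubules, stood at 12.93 in the collecting duct array and at 13.83, 13.52 and 13.18 in the anlage arrays, a difference of -0.58 ± 0.48 (SE) with no overlap. Its other probe set differed by 0.64. Ndc80 and Nuf2, subunits of the same complex, differed by -0.42 ± 0.50 and -0.13 ± 0.64, and the latter was 0.13 without anlage array 2. Cenpe, a motor at kinetochores, differed by -0.55 ± 0.64 and Cenpf, a large late-cycle kinetochore protein, by -0.22 ± 0.53. Over the mean of all probe sets the difference was 0.52 for Cenpe, 0.24 for Cenpf, 0.03 for Spc25 and -0.36 for Cenpa. Cenpa, the histone that marks centromeres, stood at 13.65 against 13.23, 13.93 and 14.00, inside the anlage range, and its difference of -0.07 ± 0.49 changed sign without anlage array 2 or 3, at 0.03 and 0.07.

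By their brightest probe sets, all 6 spindle motors and assembly factors lay below all 3 anlage arrays, where 24.3% of all genes did. Hmmr, a microtubule-binding protein of the spindle, stood at 11.45 in the collecting duct array and at 12.16, 12.41 and 12.65 in the anlage arrays. The anlage values were close together, and the difference was -0.95 ± 0.51 (SE). Nusap1, which bundles spindle microtubules, differed by -0.89 ± 0.56, the chromosome-arm kinesin Kif4 by -0.88 ± 0.73, Kif11, the kinesin that pushes spindle poles apart, by -0.81 ± 0.52 and Tpx2, which activates Aurka on the spindle, by -0.65 ± 0.50. Kif2c, a kinesin that takes microtubule ends apart, stood at 13.07 against 13.40, 13.64 and 13.41, with the smallest difference of the group at -0.41 ± 0.43. Over the mean of all probe sets the difference of Nusap1 was -0.23 and that of Kif11 -0.52, and that of Kif4 was -0.40 without anlage array 2. The other tested probe sets of the group were lower, except a probe set each of Nusap1 (0.42), Kif11 (0.40) and Kif2c (0.21). In Hmmr and Tpx2 the smallest of these differences were -0.04 and -0.01.

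Genes of the central spindle and of cytokinesis all had lower values (54.9% of all genes did). Of these 6, 2 lay below every anlage array (24.3% of all genes). Anln, which encodes the actin-binding anillin of the cleavage furrow, stood at 11.71 in the collecting duct array and at 12.22, 13.27 and 12.96 in the anlage arrays. The groups did not overlap, and its difference of -1.11 ± 0.59 (SE), a 2.16-fold lower level, was the largest of all members. It was -1.46 without anlage array 1 and -0.60 over the mean of its probe sets. Prc1, which crosslinks the central spindle, differed by -0.71 ± 0.46 and lay below all 3 in each of its probe sets. Ect2, the exchange factor that switches on RhoA at the furrow, differed by -0.68 ± 0.78, Kif20a by -0.67 ± 0.64 and Racgap1, the partner of Ect2, by -0.48 ± 0.75. For Ect2 and Racgap1 the collecting duct array lay above anlage array 1, and without anlage array 2 their differences were -0.26 and -0.09. Kif23, the kinesin partner of Racgap1, stood at 13.27 against 14.05, 13.25 and 13.35, just above anlage array 2, and differed by -0.28 ± 0.51, or -0.03 without anlage array 1.

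**Figure D2:**
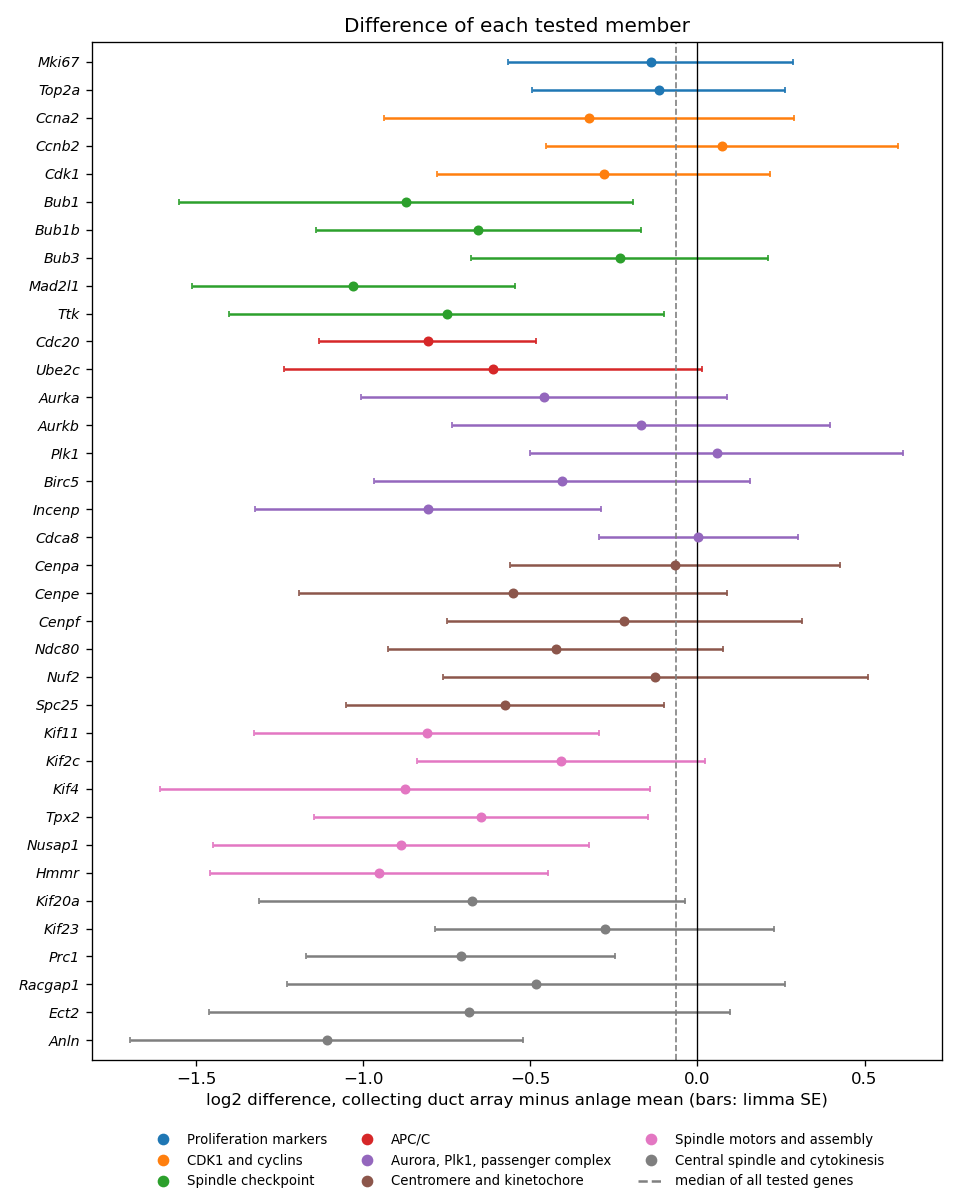
Difference of each tested member on the log2 scale, collecting duct array minus the mean of 3 anlage arrays, with the limma standard error as a bar, ordered and coloured by role. The dashed line is the median of all tested genes at -0.06. Points of 33 of 36 members lie left of 0, from Anln at -1.11 to Ccnb2 at 0.07.

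The anlage arrays also differed among themselves in these genes. The highest anlage value was in array 2 for 21 of 36 members, against 45.7% of all genes, in array 3 for 8 (27% of all genes) and in array 1 for 7 (27.3%). Array 1 was the lowest anlage array for 23 members (52.7% of all genes), array 2 for 5 (26.3%) and array 3 for 8 (21%). The 7 highest in array 1 were Ccna2, Aurka, Aurkb, Birc5, Cdca8, Spc25 and Kif23. Set against each anlage array alone, the collecting duct array had a lower value for 27 members against array 1, for 32 against array 2 and for 30 against array 3. The median of these differences was -0.27, -0.69 and -0.42, where all genes had medians of 0.09, -0.21 and -0.12. The members' median thus lay below that of all genes against each anlage array.

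Probe sets of the same gene did not always move together. Over the 71 tested probe sets, 57 were lower in the collecting duct, where 52% of 22499 tested probe sets were, and 27 lay below all 3 anlage arrays, where 22.5% did. Above all 3 lay 1, probe set 1439252_at of Incenp, where 17.5% of all tested probe sets did. With every array brought to 1 shared median, 17 of 71 lay below all 3, where 19.6% did, and without anlage array 1, 43 of 70 lay below both others, where 43.0% did. Of the 23 members with several tested probe sets, 10 had probe sets of opposite sign, and in 24 of all 36 members every tested probe set was lower. The brightest probe sets had a median difference of -0.52 and the other 35 a median of -0.28, with 11 of the 35 higher in the collecting duct array.

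The largest opposite differences came from probe sets that were low in anlage array 2. For Cenpe, probe set 1435005_at stood at 11.63 in the collecting duct array and at 11.69, 12.89 and 11.96 in the anlage arrays, while 1439040_at stood at 11.85 against 11.93, 8.96 and 9.87 and differed by 1.60 ± 1.17 (SE). For Ttk, 1442594_at stood at 9.58 against 9.68, 7.18 and 8.15 and differed by 1.24 ± 1.00, opposite to the -0.75 of the brightest probe set. In each of these the collecting duct array and anlage array 1 were close and anlage arrays 2 and 3 were far lower. Probe set 1458447_at of Cenpf had the same order within the anlage, at 12.49, 8.57 and 9.77, with the collecting duct array between at 11.20.

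Of the 11 other probe sets that were higher in the collecting duct array, 7 were lowest in anlage array 2 and 8 were highest in anlage array 1, where 31.2% and 33.6% of all tested probe sets were. Of the 24 other probe sets that were lower in the collecting duct, 6 were lowest in array 2 and 7 highest in array 1. The 11 were picked by the sign of their difference, which an anlage array's low value helps to set. Their median difference between anlage arrays 1 and 2 was 2.06. Among the brightest probe sets of the 36 members, 5 were lowest in array 2, and the median difference between these arrays was -0.57. Array 2 had the highest Gapdh ratio, 54.1, and array 1 the lowest, 10.3, and the part of RNA quality in the disagreement was not tested. Where on the transcript each probe set lies was not used here.

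**Figure D3:**
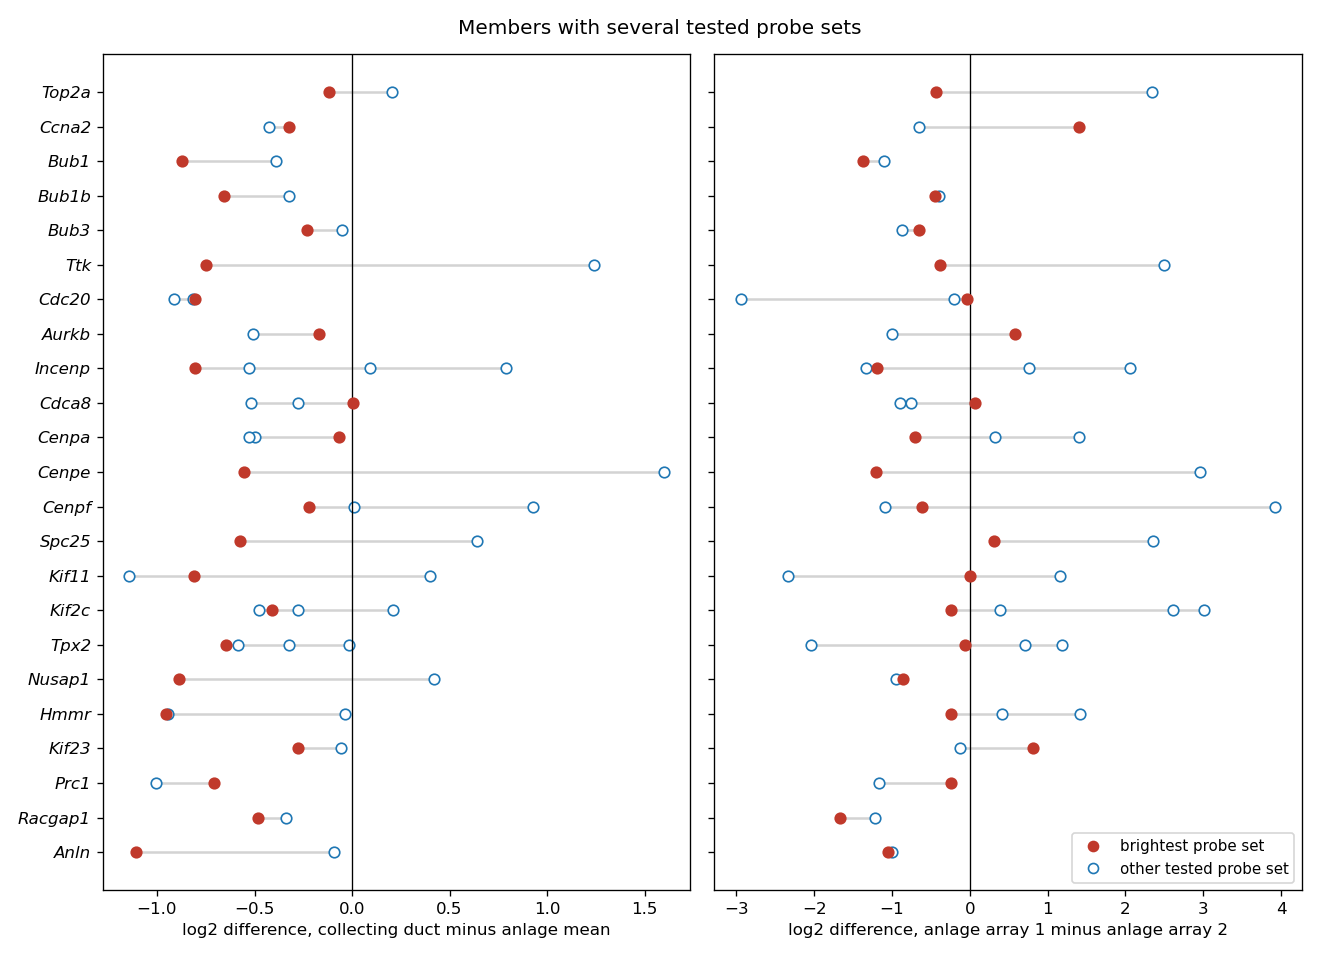
Tested probe sets of the 23 members with more than 1, on the log2 scale: collecting duct minus anlage mean at left, anlage array 1 minus anlage array 2 at right. Filled points are the brightest probe set of each gene and open points the others, and a grey line joins them. Open points lie right of 0 at left for 11 of 35 probe sets, up to 1.60 for Cenpe.

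Other mitosis genes, on a list of 61 written with earlier results known, lay in the same direction with more exceptions. Of 56 tested, 44 were lower in the collecting duct, where 54.9% of all genes were. Below all anlage arrays lay 17, a share of 30.4% beside 24.3% of all genes, while 5 lay above all, beside 17.3% of all genes. Their median difference was -0.32, and limma called 0. Among the tested genes the largest difference was that of Ska2 (-1.26 ± 0.51, SE), part of the complex that couples kinetochores to microtubules. Next came Cenpk (-1.23 ± 0.57) and Cenpl (-1.19 ± 0.68) of the inner kinetochore, and the kinase Melk (-1.06 ± 0.77). Ska2 stood at 12.22 against 13.05, 13.85 and 13.54, without overlap. The 3 genes of the list below the filter, Troap, Kif14 and Mad1l1, all lay above every anlage array, with differences of 1.03, 1.45 and 0.68. Without the filter 44 of 59 were lower, where 55.9% of all genes were.

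DNA replication genes, which act in S phase before mitosis, were lower for 27 of 37 tested, where 54.9% of all genes were. Of the 37, 14 lay below all anlage arrays (37.8%, beside 24.3% of all genes) and 3 above all (beside 17.3%). Their median difference was -0.27, and limma called 0. Gins4 and Gins1, subunits of the replicative helicase, differed by -1.55 ± 0.55 (SE) and -1.12 ± 0.54, the thymidine kinase Tk1 by -1.41 ± 0.79 and the polymerase subunit Pole by -0.92 ± 0.51. Gins4 stood at 10.80 in the collecting duct array and at 12.07, 12.79 and 12.18 in the anlage arrays. Whether mitosis genes differed more than replication genes was not tested.

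Inhibitors of cyclin-dependent kinases and the retinoblastoma family showed no common direction. Of 8 tested, 5 had a lower value, where 54.9% of all genes did, and limma called 0. Below all anlage arrays lay 1 (24.3% of all genes) and above all 2 (17.3%). Cdkn2c differed by -0.69 ± 1.23 (SE), Rb1 by -0.64 ± 0.45 and Cdkn1b by -0.38 ± 0.90, while Cdkn1c, a growth-restraining inhibitor, differed by 0.51 ± 0.69. Cdkn1c stood at 15.44 in the collecting duct array and at 15.96, 14.19 and 14.63 in the anlage arrays, and Rb1 at 12.69 against 13.13, 13.35 and 13.52. Cdkn2a and Cdkn2b were below the filter and not tested. Cdkn2b stood at 7.03 against 8.57, 8.75 and 9.04, below all anlage arrays. Cdkn2a stood at 8.04 against 7.27, 8.01 and 7.23, above all of them.

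**Figure D4:**
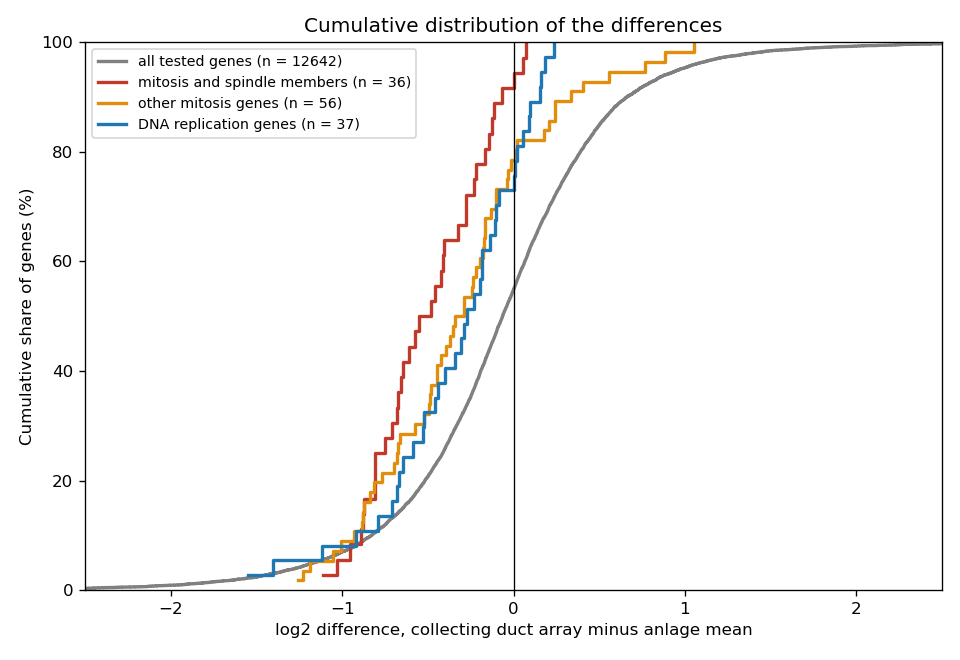
Cumulative share of genes (vertical axis, percent) at or below each log2 difference, collecting duct array minus anlage mean (horizontal axis, which leaves out the most extreme of all genes), for all 12642 tested genes, the 36 members, 56 other mitosis genes and 37 DNA replication genes. The curve of the members lies left of that of all genes over most of its length and ends at 0.07, with medians of -0.52 and -0.06.

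Markers of several other cell types were lower in the collecting duct array, as the members were, and those of others had no single direction. Of all tested genes, 54.9% were lower. All 8 tested endothelial markers were lower in the collecting duct array, where the summed signal of 10 such genes was 5162, against 8711 to 19264 in the anlage arrays, with Pecam1 and Tie1 below the filter. All 6 tested macrophage markers were lower, with a summed signal of 2894 against 4391 to 6175 over 9 genes, Ptprc, Aif1 and C1qa being below the filter. Erythroid markers summed to 2013 against 2208 to 3669 over 6 genes, of which 4 (Hba-a1, Hbb-bh1, Gata1 and Klf1) were below the filter. Of the tested markers, 5 of 7 of the cap mesenchyme, 8 of 11 of the stroma and 3 of 4 of podocytes were lower. Cap mesenchyme markers summed to 15804, within the anlage range of 13333 to 30269. Stromal markers summed to 164951, against 162142, 145859 and 419387 in anlage arrays 1, 2 and 3. Genes listed as proximal tubule markers were lower for 8 of 8, summing to 4161 against 10320 to 15182. Of these, Fxyd2 had the largest difference (-3.00) and was the brightest in anlage arrays 1 and 3. It stood at 9.12 in the collecting duct array and at 13.08, 10.91 and 12.38 in the anlage arrays. Among the anlage arrays it was lowest in array 2, as were 10 of 13 loop markers. Whether its signal came from the proximal tubule was not tested. Podocyte markers summed to 9059 against 9105 to 27288 over 5 genes, with Nphs1 below the filter. None of these genes was listed at 0. The part of these cells in the members' differences was not tested.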

How the data were processed

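Per the labels, RNA of laser-captured pools was amplified, labelled with biotin and hybridised to 4 arrays. The deposited values are probe set intensity on a linear scale, produced by the software GCOS according to the submitters' processing notes. No version or algorithm is given in the sources used here. Each array's mean after trimming 2% at each end was 1500, and the medians ranged from 206.9 to 526.5. Any 2 arrays had at most 3 probe sets with equal values.

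The arrays were quantile normalized and log2(signal + 109.6) was taken, the offset being the 25th percentile. After 64 control probe sets were left out, 34945 probe sets had 1 gene symbol in the platform table, 932 several and 9160 none; only the first were used. All 82 member probe sets matched the RefSeq table by Entrez number with the same symbol. A gene's probe set with the highest mean was used, and genes under 8.42, the 40th percentile, were not tested, which left 12642 of 18193. Limma (version 3.58.1, R 4.3.3) with lmFit and eBayes (intensity trend), two-sided, compared the groups with 2 residual degrees of freedom that come from the anlage group, Benjamini-Hochberg adjustment at 0.05. The fit takes the spread of the lone collecting duct array to be that of the anlage, and the number of arrays limits the precision. An exact permutation test of 1 against 3 cannot go below p = 0.25 and was not used. The fit was also run on simulated data with independent genes and the anlage spread in both groups. That run says nothing about the unknown spread of the collecting duct array.

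Members and lists were chosen with earlier results of these data known. Every member is named. Values in each array are given for the members with the largest and smallest difference in each of 8 role groups. Of each other list, the 4 tested genes with the largest differences are named. Probe sets other than the brightest, and Cdc20's promoter, were picked after their values were seen. Promoter windows came from RefSeq (GRCm38.p6). Alternatives varied normalization, offset, filter, probe set choice, the trend and the arrays included.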

Additional observations from a re-analysis of the deposited data

How the results depend on the processing

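With 1 collecting duct array, its own spread is unknown, and the offset shrinks the differences of dim probe sets. No paired analysis was possible because the groups share only replicate number 3. Across 11 alternative settings 0 members passed the adjusted threshold, and 29 to 36 members had a lower value, where 49.7% to 67.8% of all genes did. The 36 came with common-median scaling, which also gave the 67.8%. The members' median difference relative to all genes lay between -0.56 and -0.33, against -0.45. Scaling arrays to a common median moved the median of all genes to -0.24 and the members' median to -0.80. It put the highest anlage value of all 36 members in array 2, against 21, while the share of all genes highest there rose from 45.7% to 73.9%. It left 17 member probe sets below all anlage arrays, against 27. With 1 anlage array left out that count was 35 to 43, where 26.8% to 43.0% of all probe sets lay below both remaining arrays. Limma called 0 to 14 genes over the whole table, the 14 without anlage array 2, with 0 members among them. At an unadjusted p under 0.05 the refit without anlage array 1 held 6 members, all lower (Cdc20, Incenp, Nusap1, Mad2l1, Anln and Hmmr), beside 7.85% of all genes lower at that p, with a smallest adjusted p of 0.361. The median of all genes moved to -0.19 there.

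For 23 members the sign held in every setting tried. The other 13 changed sign somewhere. Under common-median scaling Ccnb2 was -0.21, Cdca8 -0.33 and Plk1 -0.13, and with the deposited scaling Cdca8 was -0.063. With the mean of all probe sets Cdca8 was -0.27, Cenpe 0.52, Cenpf 0.24, Spc25 0.032, Top2a 0.046 and Ttk 0.25. With 1 anlage array left out in turn, the difference ran from -0.36 to 0.080 for Aurkb, from -0.69 to 0.034 for Ccna2, from -0.086 to 0.23 for Ccnb2, from -0.0089 to 0.016 for Cdca8 and from -0.32 to 0.073 for Cenpa. For Mki67 it ran from -0.30 to 0.082, for Nuf2 from -0.47 to 0.13, for Plk1 from -0.16 to 0.18 and for Top2a from -0.25 to 0.059. The cause of these changes was not tested.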
